A study of Mus musculus with 2 samples.

Results

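The 8 genes described here encode receptors, adaptor proteins and inhibitors of leptin and insulin signalling: Lepr, Insr, Igf1r, Irs1, Irs2, Irs4, Socs3 and Ptpn1. They were taken by name from the 31053 gene rows of a single-nucleus RNA count matrix of the mouse paraventricular hypothalamus (PVH), and all 8 were found. The PVH is the hypothalamic nucleus that holds neurons for appetite, water balance and pituitary hormone release. The genes were read across neurons grouped by the UMIs of peptide and marker genes, and across hashtags, which are barcoded antibodies that mark the nuclei of 1 pool of mice. A UMI is a molecule tag that lets each captured RNA be counted once.

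The mice were 4 weeks old. The Q153R hashtag is read as the pool of 6 Sim1-Cre; Sun1-GFP; Otp Q153R/+ mice, which carry 1 Otp allele with that amino acid change. The KD hashtag is not spelled out in the labels and is matched to the 4 Sim1-Cre; Sun-GFP; Otp fl/+ mice by elimination only. The Ctrl hashtag is read as the 7 Sim1-Cre; Sun1-GFP mice without an altered Otp allele. All 17 mice carry Sim1-Cre and the nuclear GFP reporter, so the control mice also carry Cre, and the reporter marks any cell that has expressed Sim1-Cre, which is not confined to PVH neurons in adults. GFP-positive nuclei were sorted, each genotype was 1 pool, and all pools went into 1 gene expression library. Differences between pools therefore cannot be set against the spread of replicates, and none is tested. Intervals are at 95% and cover counting error only.

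Leptin from fat cells binds the receptor encoded by Lepr, which works through the kinase Jak2 and the transcription factor Stat3. Stat3 switches on Socs3, whose product blocks the receptor complex. Insulin and insulin-like growth factor 1 bind receptor kinases encoded by Insr and Igf1r, which phosphorylate the insulin receptor substrates (Irs1, Irs2, Irs4) and so engage PI3 kinase, Akt and the Foxo factors. Ptpn1 encodes the phosphatase PTP1B, which removes phosphate from both the insulin receptor and Jak2. In the hypothalamus Irs2 and leptin signalling are known for their part in the control of body weight, and leptin receptors are known to be denser in the arcuate nucleus than in the PVH.

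The 8 genes lie on 7 chromosomes on the GRCm38 build with GENCODE vM21 genes. Lepr is at chr4:101717404-101815352 on the plus strand, Igf1r at chr7:67952827-68233668 on the plus strand and Ptpn1 at chr2:167932057-167979385 on the plus strand. On the minus strand are Insr at chr8:3122061-3279617, Irs1 at chr1:82233101-82291416, Irs2 at chr8:10984681-11008458, Irs4 at chrX:141710998-141725263 and Socs3 at chr11:117966079-117970047. Of genes in the matrix, Gm16180 overlaps Insr, Gm9747 overlaps Irs1 and Gm15295 overlaps Irs4 on the opposite strand, with 1, 18 and 17 UMIs over all barcodes. No source says whether strand was used in the counting, so reads of these pairs may not be told apart. Their levels are low beside those of Insr and Irs1, and less so beside that of Irs4, with 380 UMIs in the neurons kept.

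The promoters of the 3 substrate genes are printed because they share a short stretch that no other gene in the RefSeq table has, while their levels across neuron classes differ, as given below. Each stretch is on the minus strand of GRCm38.p6 (RefSeq), 5′ to 3′, with the capitals marking TCACGTG and, after it, TTTTGC.
Irs1 promoter, chr1:82291518-82291580: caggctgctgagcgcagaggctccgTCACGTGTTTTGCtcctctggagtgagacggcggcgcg
Irs2 promoter, chr8:11008934-11008999: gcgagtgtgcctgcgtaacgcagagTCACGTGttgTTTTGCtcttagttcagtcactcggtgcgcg
Irs4 promoter, chrX:141725332-141725397: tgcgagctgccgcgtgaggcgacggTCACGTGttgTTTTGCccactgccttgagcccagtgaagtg

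The capitals begin 116, 45 and 155 bases before the RefSeq start of Irs1, Irs2 and Irs4. The 2 elements touch in Irs1 and are 3 bases apart in Irs2 and Irs4. On either strand of the 250 bases before the start, TCACGTG followed within 8 bases by TTTTGC was found in 3 of 27025 genes (0.0111%), which are these 3. The pattern was read off these promoters, so the count is a description of them. The shorter letters CACGTG, known as an E-box and held within TCACGTG, occurred in 6.86% of genes and in 3 of the 7 members with a promoter entry. The longest of these motifs, TCACGTGTT, is unbroken in all 3 promoters and occurred in 56 genes (0.207%), so it is not confined to them. The letters TGTTTT, a core that Forkhead factors are known to bind and that overlaps the pair of elements, occurred in 22.3% of genes and in 4 of the 7. The letters TTCNNNGAA, bound by Stat factors, occurred in 8.13% of genes and, of the 7, in Socs3 alone. Insr had no entry.

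The library held 6173 barcodes and 42833533 gene UMIs, of which 6157 barcodes passed the filters and 4904 carried exactly 1 hashtag. After 583 likely doublets were removed, 4321 nuclei were kept. A gate of glial and vascular markers took out 178 nuclei, of which 96 entered through oligodendrocyte precursor markers, mainly Lhfpl3, and had Sim1 at 454 CPM, the level of neurons. CPM is the UMIs of a gene per 1000000 summed UMIs of the same nuclei. This left 4143 neurons with a median of 5038 UMIs. Sim1 and Otp, transcription factors of the PVH, stood at 408 to 945 CPM and 64.0 to 136 CPM in all neuron groups but the GABA class, where they stood at 131 and 25.1 CPM, below those of the PVH neurons. Pools were therefore compared outside the GABA class. Otp itself stood at 121 CPM in Q153R, 88.3 in KD and 53.7 in Ctrl nuclei, and since the position of the floxed segment relative to the counted reads is not given, this level does not check the KD label.

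Neurons were placed in a class when the UMIs of its gene per 10000 of the nucleus passed a threshold: Ebf1 (517 nuclei), Crh (161), Trh (200), Sst (241), Oxt (141), Avp (199) and the sum of Gad1, Gad2 and Slc32a1, called GABA (378). The 2306 neurons over no threshold are called unclassified. Many neurons lay within 1.5-fold of a threshold, above or below it: 175 for Ebf1, 160 for Crh, 240 for Trh, 107 for Sst, 61 for Oxt, 51 for Avp and 267 for GABA. Ebf1 encodes a transcription factor, Crh corticotropin-releasing hormone, Trh thyrotropin-releasing hormone, Sst somatostatin, Oxt oxytocin and Avp vasopressin. The class genes were chosen by the grouping, and their levels are no result. Free RNA adds low counts of abundant genes everywhere: Oxt UMIs were found in 44.0% of 75 nuclei in the astrocyte gate. Lepr, Irs4 and Socs3 had no UMI in that gate, which with 162276 UMIs allows a level of up to 18.5 CPM. That limit is above the neuronal levels of Lepr and Socs3 and below that of Irs4 in the Trh class, given below.

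The receptors differed in how they were spread over the neuron classes. Igf1r, the receptor for insulin-like growth factor 1, was highest in the Crh class, while Insr, the insulin receptor, was nearly even and Lepr, the leptin receptor, was sparse throughout. Of the 6 members with at least 200 UMIs over the neurons, 4 passed a ratio of 1.5 in their highest class against all other neurons (Igf1r, Irs2, Irs4 and Ptpn1). Of all 9770 genes with that many UMIs, 38.8% did so, which is the background for this count.

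Igf1r stood at 671 CPM (610 to 735) in the Crh class, against 269 CPM in all other neurons, a ratio of 2.50 (2.26 to 2.75). It was higher in the Crh class in each pool: 597 against 257 CPM in Q153R, 683 against 275 in KD and 711 against 273 in Ctrl nuclei. The share of Crh-class nuclei with an Igf1r UMI was 73.9%, and 63.9% after each nucleus was thinned to 2376 UMIs, against 41.6% of all thinned neurons. Thinning left out 17 nuclei of the Crh class and 414 neurons in all. In the astrocyte gate, whose cells also use this receptor, the thinned share was 63.2% of 19 nuclei (38.4 to 83.7). Thinning left out 56 nuclei of that gate, where the unthinned share was 54.7%. Below the Crh class came the Sst class at 369, the Avp class at 323, unclassified neurons at 289, the GABA class at 288, the Oxt class at 232, the Trh class at 216 and the Ebf1 class at 160 CPM. Of these steps, Crh over Sst, GABA over Oxt and Trh over Ebf1 exceeded their counting intervals, and the other neighbours did not. The Ebf1 class was at 0.529 (0.483 to 0.579) of all other neurons and was the lowest class for Igf1r, also in each pool.

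Insr ran from 137 CPM (116 to 162) in the Avp class to 94.9 CPM (73.1 to 121) in the Crh class. No pair of neighbours in the order Avp, Oxt, Sst, GABA, Trh, Ebf1, unclassified and Crh differed beyond its interval. The Avp class was 1.29 times all other neurons (1.09 to 1.53) and was higher in 3 of 3 pools. The Crh class had a general shift, since the median log2 ratio over all counted genes was −0.33 there, and relative to that median the log2 ratios of Insr and Irs4 in the Crh class turn from −0.19 and −0.23 to 0.14 and 0.10.

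Lepr had 145 UMIs in 111 of 4143 neurons. Its level was 8.05 CPM (6.52 to 9.82) in unclassified neurons, against 4.84 CPM in all other neurons, a ratio of 1.66 (1.17 to 2.40). The classes followed with 6.62 CPM in Oxt, 5.90 in Ebf1, 5.30 in GABA, 4.07 in Sst, 3.76 in Avp, 2.99 in Trh and 1.48 in Crh. No neighbours in this order differed beyond their intervals, and the Trh value rests on 1 nucleus and the Crh value on 1 UMI. Unclassified neurons held 63.1% of the nuclei with a Lepr UMI and 55.7% of all neurons. At the thinned depth, 1.21% of neurons (0.882 to 1.61) had a Lepr UMI. Among unclassified neurons the thinned share was 1.32% (0.872 to 1.92), an interval that holds the share of all neurons. The ratio of 1.66 ranged from 1.16 to 2.07 over the alternatives of processing given below. Agrp, a defining gene of arcuate neurons where Lepr is known to be abundant, ranged from 25.5 to 43.9 CPM over the classes. Npy, also on the list of markers of neighbouring regions, was at 12.1 CPM in the GABA class and at most 0.941 CPM in every other group. The part of such neurons in the Lepr counts was not tested.

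**Figure D1:**
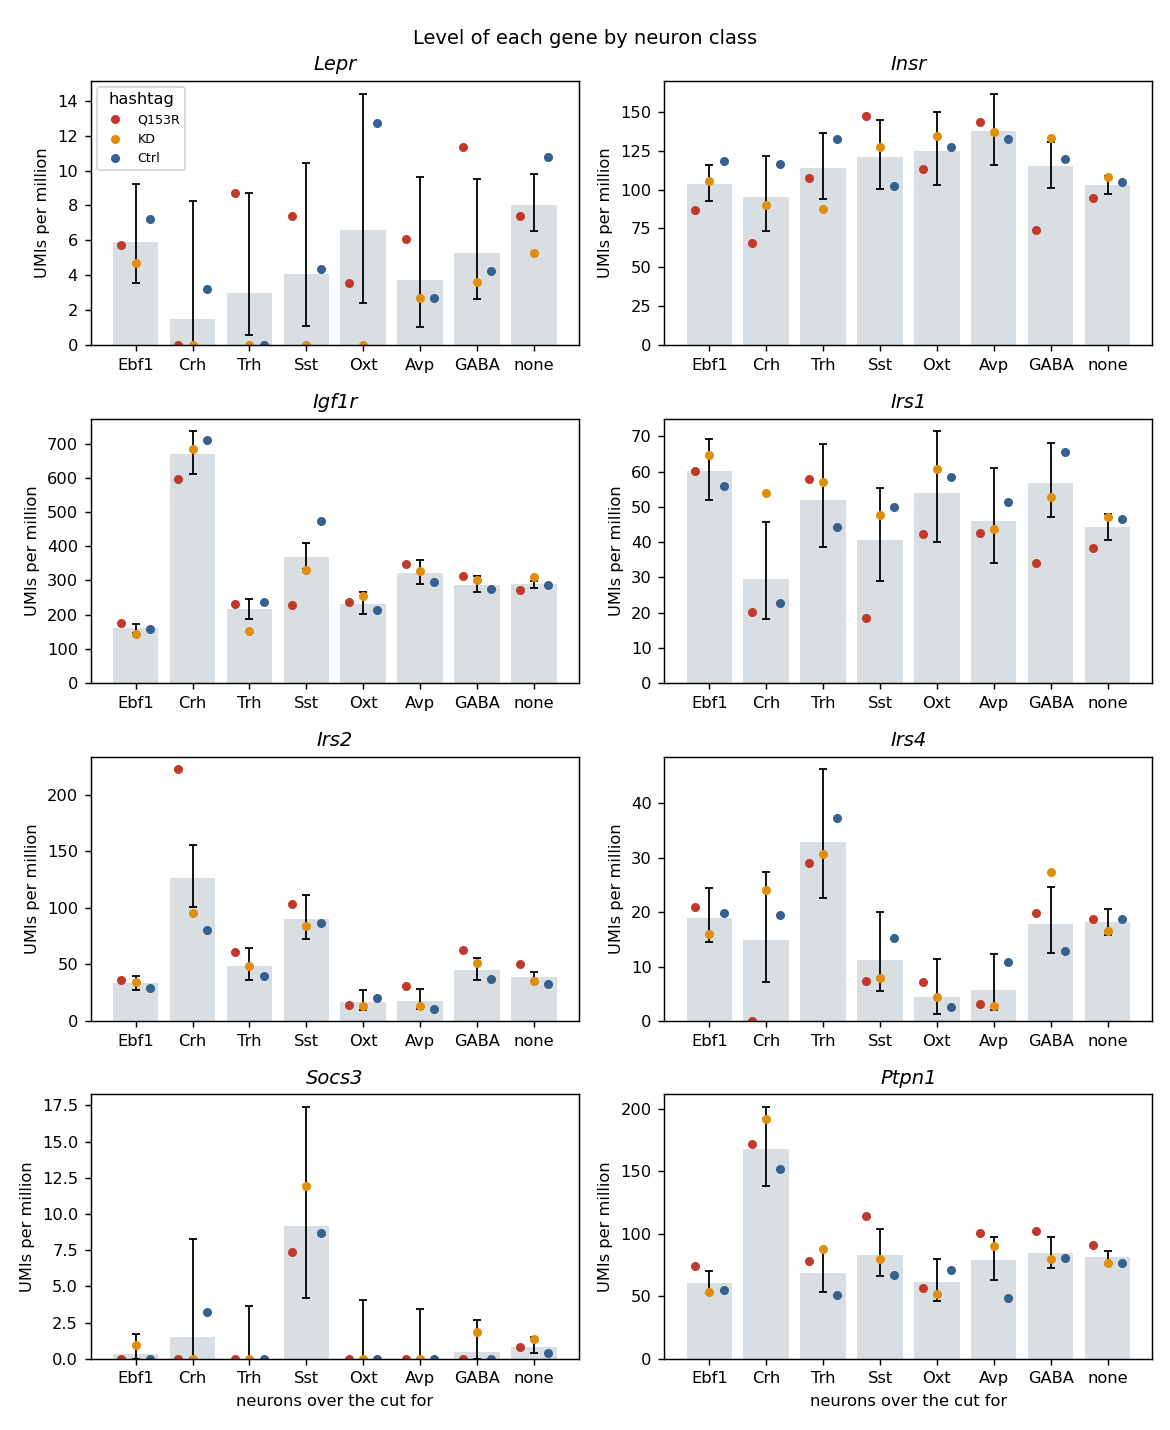
Level of each of the 8 genes in CPM (vertical axes, each with its own scale) in the neuron classes (horizontal axis; "none" are neurons over no threshold). Grey bars are all pools together with 95% Poisson intervals, and dots are the Q153R, KD and Ctrl nuclei. Igf1r, Irs2 and Ptpn1 are highest in the Crh class (671, 126 and 168), Irs4 in the Trh class (32.9) and Socs3 in the Sst class (9.16).

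The substrates split into different patterns. Irs2 was high in the Crh and Sst classes and low in the Oxt and Avp classes, Irs4 was high in the Trh class and low in the Oxt and Avp classes, and Irs1 varied least. In the Crh class 3 members were at least 1.5-fold higher than in all other neurons (Igf1r, Irs2 and Ptpn1), beside 10.9% of all genes, and 1 was lower (Irs1), beside 37.8%. Relative to the median of all genes in the Crh class, the log2 ratio of Irs1 was −0.38 in place of −0.71, which is within 1.5-fold and ends that call. In the Oxt and Avp classes 0 members were higher, beside 11.6% and 9.57% of all genes, and the same 2 were lower (Irs2 and Irs4), beside 14.1% and 18.2%. In the GABA class 0 were higher and 0 lower, beside 2.52% and 5.04% of all genes, and likewise in unclassified neurons, beside 0.952% and 1.3%.

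Irs2, a substrate that couples the insulin receptor to PI3 kinase, stood at 126 CPM (101 to 156) in the Crh class, against 39.7 CPM in all other neurons, a ratio of 3.18 (2.51 to 3.97). In the Crh class it was at 223 CPM in Q153R, 95.9 in KD and 80.8 in Ctrl nuclei, each above the other neurons of the same pool at 49.0, 37.0 and 34.7 CPM. The ratio was 4.54 in Q153R nuclei alone and 2.33 in Ctrl nuclei alone. The Sst class followed at 90.5 CPM, against 40.1 CPM in all other neurons, a ratio of 2.26 (1.79 to 2.81), which held in 3 of 3 pools.

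In the order of classes, Irs2 in Crh lay above Sst, Sst above Trh (48.9 CPM), and Ebf1 (33.3 CPM) above Avp (17.9 CPM) beyond the counting intervals. Trh, GABA (45.3), unclassified (39.2) and Ebf1 did not differ from their neighbours beyond them, nor did Avp from Oxt (16.5). The Oxt class was at 0.380 (0.212 to 0.631) and the Avp class at 0.410 (0.246 to 0.644) of all other neurons, lower in 3 of 3 pools each.

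Irs4, an X-linked substrate found mainly in brain and pituitary, had 380 UMIs in 318 neurons. It stood at 32.9 CPM (22.7 to 46.2) in the Trh class, against 16.5 CPM in all other neurons, a ratio of 1.99 (1.35 to 2.85). Each pool had it higher in that class, with 29.0 against 16.7 CPM in Q153R, 30.7 against 16.0 in KD and 37.2 against 16.8 in Ctrl nuclei. Of all genes, 5.41% were at least 1.5-fold higher in the Trh class, where Irs4 was the 1 member that was, and 7.55% were lower, where 0 members were. Ebf1 (19.0 CPM), unclassified (18.1), GABA (17.8), Crh (14.8) and Sst (11.2) were next, then Avp (5.65) and Oxt (4.41). Beyond the step from Trh to Ebf1, no neighbours differed beyond their intervals. The Oxt class, with 4 UMIs, was at 0.247 (0.0670 to 0.638) of all other neurons.

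Irs1 ran from 60.3 CPM (52.1 to 69.4) in the Ebf1 class to 29.7 CPM (18.1 to 45.8) in the Crh class. The Ebf1 class stood against 45.9 CPM in all other neurons, a ratio of 1.31 (1.12 to 1.54), and was higher in 3 of 3 pools. No neighbours in its order differed beyond their intervals. In the Ebf1 class 0 members were at least 1.5-fold higher, beside 3.36% of all genes, and 1 was lower (Igf1r), beside 5.89%.

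Of the inhibitors, Ptpn1 was highest in the Crh class and Socs3 had few UMIs at this depth. Ptpn1 stood at 168 CPM (138 to 202) in the Crh class, against 77.0 CPM in all other neurons, a ratio of 2.18 (1.78 to 2.63). In the Crh class it was at 172 CPM in Q153R, 192 in KD and 152 in Ctrl nuclei, against 88.1, 73.3 and 71.5 CPM in the other neurons of these pools. The other classes lay between 60.9 CPM (Ebf1) and 84.4 CPM (GABA), with no neighbours apart beyond their intervals. After thinning, 31.9% of Crh-class nuclei had a Ptpn1 UMI (24.4 to 40.2), against 16.7% of all neurons.

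Socs3, which leptin is known to induce, had 22 UMIs in 21 neurons. The Sst class held 9 of these UMIs in 8 nuclei, 10 fell in unclassified neurons, 1 each in the Ebf1, Crh and GABA classes, and none in the Trh, Oxt and Avp classes. The Sst class thus stood at 9.16 CPM (4.19 to 17.4), against 0.619 CPM in all other neurons, a ratio of 14.8 (5.58 to 37.4). Each pool had Socs3 UMIs in the Sst class, with 2 in Q153R, 3 in KD and 4 in Ctrl nuclei. The 0 counts in the Trh, Oxt and Avp classes allow levels of up to 2.99, 3.31 and 2.82 CPM, and no neighbours in the order differed beyond their intervals. In the Sst class 1 of the 6 members with at least 200 UMIs was higher (Irs2), beside 7.36% of all genes, and 1 was lower (Irs4), beside 15.5%.

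Markers of other cell types also varied over these groups. Summed over the list, 5 of 5 astrocyte markers had UMIs in neurons and stood at 0.941 to 11.03 CPM over the groups of neurons, 5 of 5 oligodendrocyte markers at 37.5 to 56.5, 5 of 5 microglial markers at 48.0 to 79.6 and 5 of 5 endothelial markers at 8.14 to 19.2. The 5 oligodendrocyte precursor markers summed to 113 CPM in the Crh class and 959 in the Ebf1 class, nearly all from Lhfpl3, while Pdgfra and Sox10 were near 0. Of the 5 ependymal and tanycyte markers Ccdc153 was at 0, and the others summed to 2.82 to 68.2 CPM, of which Col23a1 gave 67.1 CPM in the Sst class. Markers of neurons of neighbouring regions (10 of 10) summed to 47.5 to 180 CPM, highest in the Sst class, where Cartpt gave 98.7 and Fezf1 21.4 CPM. The part of these markers in the levels of the members was not tested. The Crh and Sst classes had the shallowest nuclei, with medians of 4071 and 3892 UMIs against 5038 in all neurons.

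Other genes of the 2 pathways, taken as a list of 89 of which 69 had at least 200 UMIs, differed between the same classes. In the Sst class 7 of 69 (10.1%) were at least 1.5-fold higher, beside 7.36% of all genes, and 9 (13.0%) were lower, beside 15.5%, so the list lay near the background. Ghr, the growth hormone receptor, stood at 2036 CPM in the Sst class, against 314 CPM in all other neurons, a ratio of 6.47. Stat5b, the transcription factor that the growth hormone receptor works through, was at a ratio of 2.93, Socs2, its known target and inhibitor, at 1.56, Foxo3 at 3.09 and Pik3r1, a regulatory subunit of PI3 kinase, at 2.04. Grb14, an inhibitor of the insulin receptor, was lower in the Sst class, with 8.14 against 51.9 CPM in all other neurons. Also lower there were the prolactin receptor Prlr (ratio 0.122), the phosphodiesterase Pde3a (ratio 0.224) and the kinase Akt2 (ratio 0.275).

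In the Crh class 10 of 69 genes of the list (14.5%) were higher, beside 10.9% of all genes, and 20 (29.0%) were lower, beside 37.8%, with a median log2 ratio of −0.17 beside −0.33 over all genes. Those higher included the leptin transducers Jak2 (174 against 88.4 CPM in all other neurons, ratio 1.96) and Stat3 (80.1 against 45.9 CPM, ratio 1.75). The inhibitors Ptpn2 (ratio 1.71) and Socs5 (ratio 2.60), the ubiquitin ligase Cbl (ratio 2.85) and Lifr, the receptor for leukaemia inhibitory factor (ratio 3.32), were higher as well. Grb14 and Prlr were lower there, with 11.9 against 51.1 CPM and 11.9 against 115 CPM in all other neurons. The adaptors Sh2b2 (ratio 0.203) and Shc3 (ratio 0.284) and the inhibitor Socs2 (ratio 0.293) were lower as well. Ptpn1, Jak2 and Stat3 were higher in the class in which Lepr had 1 UMI, at 1.48 CPM (0.0376 to 8.27). That count does not separate the Lepr level of the Crh class from that of other neurons (ratio 0.219, 0.00552 to 1.24).

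In the Avp class 7 of 69 (10.1%) were higher, beside 9.57% of all genes, and 17 (24.6%) were lower, beside 18.2%. Foxo1, a transcription factor that insulin shuts out of the nucleus, was at 5.65 CPM in the Avp class, a ratio of 0.226 to all other neurons, and Prlr at 3.76 CPM, against 118 CPM in all other neurons. Igf2r, the receptor that clears insulin-like growth factor 2, was at a ratio of 2.02. In the Oxt class Ide, the insulin-degrading enzyme, was at 168 CPM, against 103 CPM in all other neurons. In the Trh class Foxo1 was at a ratio of 1.71 and in the Ebf1 class Ghr at 0.337 and Prlr at 1.64. In the GABA class Igfbp5, which binds insulin-like growth factors, was at a ratio of 3.18.

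**Figure D2:**
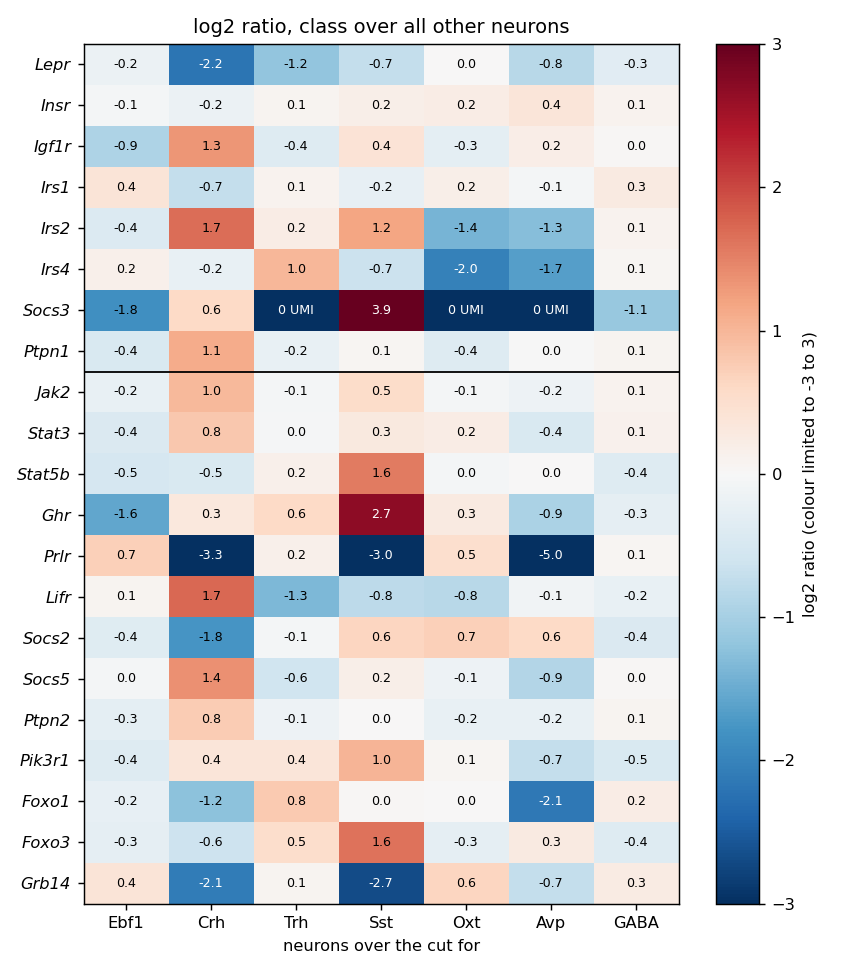
log2 ratio of the level in each class (columns) to that in all other neurons, for the 8 genes (above the line) and other genes of the pathways chosen for display after their values were seen (below it). Red is higher in the class and blue lower, and squares with 0 UMI had no count in the class. The Crh column holds the high ratios of Irs2, Igf1r and Ptpn1 beside Jak2 and Stat3, and the Sst column those of Socs3, Irs2, Ghr and Stat5b.

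The pool comparisons describe how these genes differ between the 3 hashtag pools. With 1 pool per genotype, they cannot tell Otp genotype apart from other differences between the pools. Outside the GABA class there were 1331 Q153R nuclei with 6268075 UMIs, 998 KD nuclei with 5921153 UMIs and 1436 Ctrl nuclei with 7713843 UMIs. Most members differed little: Irs2 was higher in Q153R than in the other pools, Ptpn1 slightly so, and Lepr was lower in KD than in Ctrl nuclei at low counts. Of the 6 members with at least 200 UMIs, 0 passed 1.5-fold for Q153R against Ctrl, beside 0.598% of 8196 genes in either direction, 0.329% higher and 0.268% lower. The count was likewise 0 of 6 for KD against Ctrl, beside 0.766% of 8094 genes, 0.259% higher and 0.507% lower. For Q153R against KD it was also 0 of 6, beside 1.08% of 7675 genes, 0.678% higher and 0.404% lower. Nuclei with at least 3 Xist UMIs and no UMI of the Y-linked Ddx3y, Uty, Kdm5d and Eif2s3y are read as female and called Xist nuclei. Their share was 47.6% in Q153R, 81.3% in KD and 68.9% in Ctrl, so the pools differ in this reading of sex as well as in genotype. Median depth also differed, with 4486, 5691.5 and 5087 UMIs, and its part in these shares was not tested. Values within Xist nuclei are given beside each printed ratio to Ctrl over all nuclei outside the GABA class whose interval is away from 1.

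Irs2 stood at 53.8 CPM in Q153R nuclei, 37.3 in KD nuclei and 36.2 in Ctrl nuclei, from 337, 221 and 279 UMIs. The ratio was 1.49 for Q153R against Ctrl (1.26 to 1.75), just under the fold, and 1.44 for Q153R against KD (1.21 to 1.71). For KD against Ctrl it was 1.03 (0.861 to 1.24). Computed within classes and combined, Q153R against Ctrl was 1.55 (1.32 to 1.82), and within Xist nuclei it was 1.44 (1.17 to 1.77).

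By class, Irs2 was higher in Q153R than in Ctrl nuclei in 6 of 7 groups of neurons, the exception being the Oxt class with 14.2 against 20.3 CPM from 4 and 8 UMIs. The Avp class had the largest ratio, 2.82 (0.813 to 12.3), from 10 and 4 UMIs. The Crh class had 223 CPM in Q153R against 80.8 CPM in Ctrl nuclei, a ratio of 2.75 (1.65 to 4.70), from 44 and 25 UMIs in 23 of 52 and 21 of 70 nuclei. Unclassified neurons had 50.6 CPM in Q153R against 32.9 CPM in Ctrl nuclei, a ratio of 1.54. The Crh class is singled out after its values were seen, and the difference between classes was not tested.

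Ptpn1 stood at 90.0 CPM in Q153R, 76.0 in KD and 73.2 in Ctrl nuclei. The ratio was 1.23 for Q153R against Ctrl (1.09 to 1.38), 1.18 for Q153R against KD (1.04 to 1.34) and 1.04 for KD against Ctrl (0.915 to 1.18). Within Xist nuclei Q153R against Ctrl was 1.44 (1.24 to 1.68). The Avp class had 101 CPM in Q153R and 90.2 in KD, against 48.8 CPM in Ctrl nuclei.

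Igf1r differed by little over all neurons and by more in the Sst class and, for KD, in the Trh class. It stood at 264 CPM in Q153R, 284 in KD and 290 in Ctrl nuclei, with ratios of 0.911 for Q153R against Ctrl (0.855 to 0.971) and 0.980 for KD against Ctrl (0.920 to 1.04). Within Xist nuclei the Q153R against Ctrl ratio of Igf1r was 0.907 (0.835 to 0.986). In the Sst class it was at 229 CPM in Q153R, 330 in KD and 473 in Ctrl nuclei, which gives 0.483 (0.358 to 0.643) and 0.698 (0.535 to 0.903) against Ctrl. In the Trh class it was at 232, 153.3 and 237 CPM in Q153R, KD and Ctrl nuclei, with a ratio of 0.646 for KD against Ctrl (0.427 to 0.957). In the Crh class, where Igf1r is highest, the ratio was 0.840 for Q153R against Ctrl and 0.961 for KD against Ctrl, both with intervals across 1. In the Avp class the Q153R, KD and Ctrl levels were 348, 328 and 295 CPM. The Sst and Trh classes are singled out after their values were seen, and the difference between classes was not tested.

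Lepr had 42 UMIs in 35 Q153R nuclei, 25 in 21 KD nuclei and 67 in 47 Ctrl nuclei, which are levels of 6.70, 4.22 and 8.69 CPM. KD against Ctrl was 0.486 (0.294 to 0.780), and 0.470 within classes. Within Xist nuclei it was 0.699 with an interval across 1 (0.385 to 1.24), from 21 and 34 UMIs. Q153R against Ctrl was 0.771 (0.512 to 1.15) and Q153R against KD 1.59 (0.945 to 2.72). In unclassified neurons, which hold most of the counts, KD had 5.26 CPM, against 10.8 CPM in Ctrl nuclei. At the thinned depth 1.02% of Q153R, 0.763% of KD and 1.81% of Ctrl nuclei had a Lepr UMI, with intervals that overlap.

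Insr stood at 98.9 CPM in Q153R, 110 in KD and 111 in Ctrl nuclei, a ratio of 0.890 for Q153R against Ctrl (0.802 to 0.988). Within Xist nuclei that ratio was 0.902 with an interval that holds 1 (0.782 to 1.04). In the Ebf1 class it was 0.733 (0.554 to 0.965), the 1 of 7 groups with an interval away from 1. Irs1 was at 42.1, 51.2 and 48.0 CPM in the same order of pools and Irs4 at 17.2, 15.5 and 18.5 CPM, with each ratio to Ctrl inside an interval that holds 1. For Q153R against KD the Irs1 ratio was 0.823, and 0.718 to 0.862 over the alternatives of processing given below. In the Sst class Irs1 was at 0.369 (0.110 to 0.993) for Q153R against Ctrl, from 5 and 23 UMIs. Socs3 had 5, 9 and 7 UMIs in Q153R, KD and Ctrl nuclei, too few to compare. Of the 89 pathway genes, 60 were counted in the comparisons with Ctrl: 0 passed the fold for Q153R, and for KD 1 was lower and 0 were higher. That gene was Ghr, with 303 CPM in KD against 463 CPM in Ctrl nuclei, a ratio of 0.654 (0.618 to 0.693), 0.734 within classes and 0.639 within Xist nuclei. The comparisons of Q153R and KD with Ctrl share the Ctrl nuclei.

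**Figure D3:**
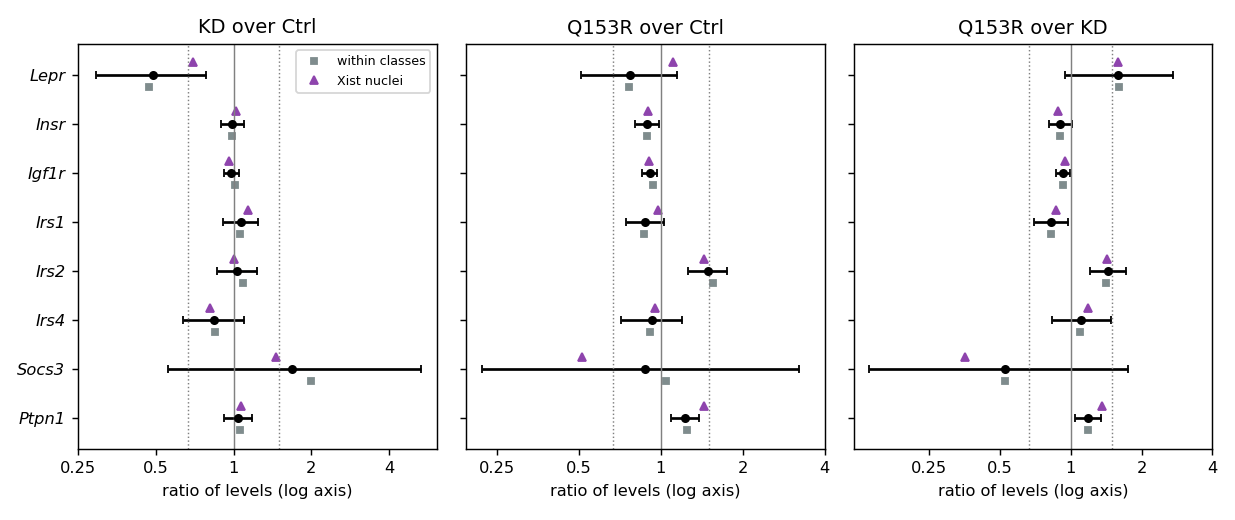
Ratio of levels between pools (horizontal axes, log scale) for the 8 genes in neurons outside the GABA class. Black points with 95% counting intervals are all nuclei and grey squares are ratios within classes. Purple triangles are nuclei with at least 3 Xist UMIs and no Y-linked UMI, and dotted lines mark 1.5-fold. Irs2 is at 1.49 for Q153R over Ctrl and Lepr at 0.486 for KD over Ctrl.

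**Figure D4:**
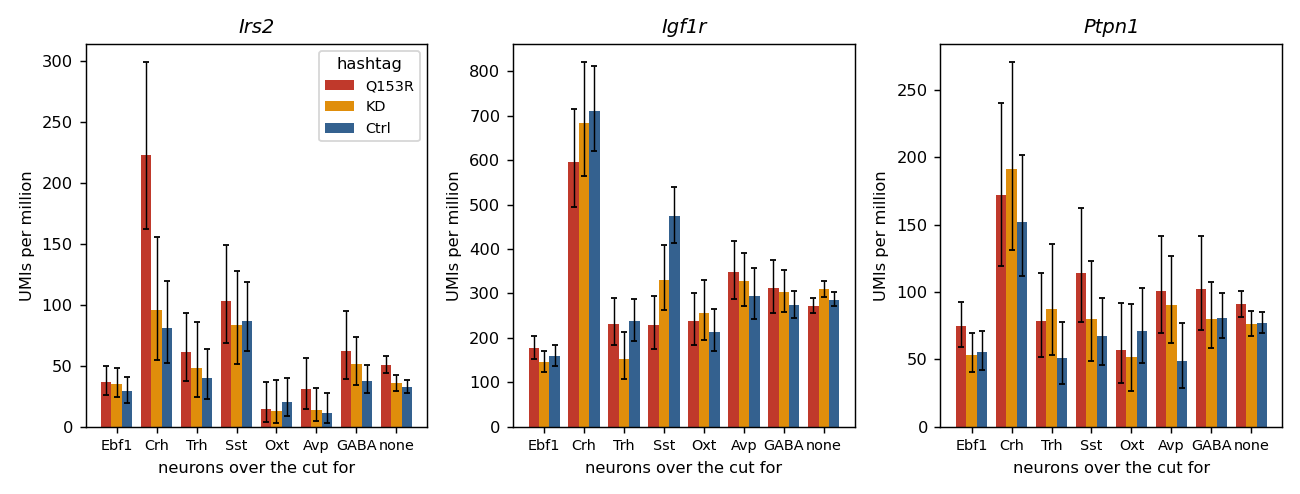
Levels of Irs2, Igf1r and Ptpn1 in CPM (vertical axes, from 0) in each class for Q153R (red), KD (orange) and Ctrl (blue) nuclei, with 95% Poisson intervals. In the Crh class Irs2 is at 223 in Q153R against 80.8 in Ctrl, and in the Sst class Igf1r is at 229 in Q153R against 473 in Ctrl.

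The levels of members were also compared between neurons with and without a UMI of another member. Neurons with an Irs2 UMI had Igf1r at 341 CPM, against 268 CPM in neurons without one, a ratio of 1.27 (1.19 to 1.35), and 1.20 within classes. Neurons with an Igf1r UMI had Ptpn1 at 85.9 against 69.9 CPM, a ratio of 1.23, and Irs4 at 14.6 against 21.7 CPM, a ratio of 0.671 (0.546 to 0.825) that was 0.698 within classes. Neurons with an Insr UMI had lower levels of Igf1r (ratio 0.842, 0.7998 to 0.886), Irs2 (ratio 0.801) and Ptpn1 (ratio 0.813). Within classes these ratios were 0.864, 0.847 and 0.829. Insr in neurons with an Igf1r UMI was at a ratio of 1.08 (0.992 to 1.18). Neurons with an Irs1 UMI had Igf1r at 220 against 298 CPM, a ratio of 0.739 that was 0.787 within classes. In the other direction, Irs1 in neurons with an Igf1r UMI was at a ratio of 0.989 (0.873 to 1.12). Insr was at 1.02 (0.912 to 1.13) in neurons with an Irs2 UMI and at 0.965 (0.885 to 1.05) in those with a Ptpn1 UMI. The pairs of Igf1r with Irs2, Ptpn1 and Irs4 kept their direction when reversed, at 1.27, 1.14 and 0.713. Detection follows depth, and nuclei with a UMI were deeper, with medians of 5278 UMIs against 4664 for Igf1r and 5919 against 4571 for Insr. Lepr and Socs3 UMIs shared 1 nucleus, with 1 Socs3 UMI in the 111 nuclei with Lepr.

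The genes whose levels most resembled each member over the 24 values of 8 groups of neurons in 3 pools were ranked by Pearson's r of log2(CPM + 5), as a description in which all points share 1 library. They were picked from genes with at least 200 UMIs over the neurons, of which there were 9770. How high the best r among so many unrelated genes would be was not tested. Lepr and Socs3 had no UMI behind several of their 24 values, so their r values rest on few counts. Irs2 was most like Bcl6 (r = 0.936), a transcriptional repressor, then Arih1 and Cntn3. Igf1r was most like Arnt2 (r = 0.901), a partner of Sim1, at 728 CPM in the Crh class against 171 in the Ebf1 class, then Fam159a and Kcnd3. Ptpn1 was most like Mtcl1 (r = 0.906), then Nuak1 and Slc2a13. Irs4 was most like Cemip (r = 0.850), then Chga and Slc16a11, and Socs3 most like Sst (r = 0.886), the gene that defines the class where its counts lay, then Masp1 and Col12a1. The genes most like Irs1 were Fam102b (r = 0.806), Rtn3 and Sept6, those most like Insr were Tsfm (r = 0.798), Fastk and Rps3, and those most like Lepr were Frg1 (r = 0.732), Cops4 and Snrpa.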

How the data were processed

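The authors deposited raw UMI counts for 1 gene expression library, in which 3 hashtags stand beside the genes. Cell Ranger 6.0.0 and mm10 are named in the submitters' processing notes, while the matrix header names 7.0.0. Annotation, intron setting and cell calling: not given in the sources used here. Kept barcodes had 500 genes or more and a mitochondrial share under 5%. A hashtag was called at 37 UMIs or more for Q153R, 61 for KD and 105 for Ctrl, and nuclei with exactly 1 tag were used. As likely doublets within a pool, the 583 nuclei were removed whose 50 nearest neighbours most often carried several tags. The lowest such share was 14%, below the average over barcodes, so some removed nuclei need not be doublets.

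Glial gates took at least 3 UMIs over 5 markers of 1 type, and more than over 4 neuron markers. Class thresholds per 10000 UMIs were 3 for Ebf1, Crh, Trh and GABA, 10 for Sst and 20 for Oxt and Avp, with at least 2 UMIs, and 150 neurons over several thresholds went to the class whose threshold they exceeded most.

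Counts were summed and divided by summed library size. Levels have exact Poisson intervals, ratios exact conditional binomial intervals, shares Clopper-Pearson intervals, and ratios within classes Mantel-Haenszel estimates with Greenland-Robins intervals, at 95%. UMIs of 1 nucleus count as independent in them. A count of 0 allows the level of 3 UMIs. Counts of genes past 1.5-fold take genes with at least 200 UMIs. With 1 pool per hashtag there is no test between pools. Python 3.11.15, NumPy 2.4.6, SciPy 1.17.1, pandas 2.3.3 and scikit-learn 1.9.0 were used, and the ratio code was tested on simulated data.

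The members and lists were chosen with earlier results of these data known. Named pathway genes are from the 6 widest ratios in each direction per comparison with an interval away from 1, and like genes are the 3 with the highest r. There is 1 library, so no barcodes are shared between libraries.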

Additional observations from a re-analysis of the deposited data

Results flagged for a closer look

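Igf1r in Q153R against KD nuclei lay on opposite sides of 1 in different classes. The ratio was 1.51 in the Trh class, 0.692 in the Sst class and 0.877 in unclassified neurons, each with a counting interval away from 1. The Trh ratio rests on 80 UMIs in Q153R and 35 in KD nuclei, and its interval begins at 1.01. The difference between classes was not tested, since each pool is 1 sample, and it was found among many class and gene pairs.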

How the results depend on the processing

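Of 15 alternatives fixed with the design and 4 added after the data were seen (a stricter glial gate and each pool alone), 16 applied to each pool comparison and 18 to each class comparison. No value with an interval away from 1 turned its direction, while several ratios near 1 crossed it, such as Lepr in Q153R against Ctrl (0.713 to 1.11). The count of members past 1.5-fold for Q153R against Ctrl, 0, was 1 (Irs2) with the called tag at 2 times its threshold or more, with class thresholds doubled, with median-of-ratios scaling, with mean CPM over nuclei, with ratios within classes and without the nucleus that holds most UMIs of a gene. The Irs2 ratio ranged from 1.41 to 1.55, so its side of the fold is undecided. For KD against Ctrl the count of 0 was 1 with a minimum of 50 UMIs and 2 with no minimum. For Q153R against KD it was 1 with mean CPM, 1 with a minimum of 50 UMIs and 2 with no minimum. Lepr and Socs3 enter by these lower minimums. The count of members past 1.5-fold in their highest class, 4, ranged from 3 to 6. Of 528 single-gene values, 515 moved by less than their interval and 13 by more. The cause of each shift was not tested. The glial gate with at least 2 markers held 82 nuclei. No paired analysis was possible because each hashtag is 1 pool in 1 library. Depth limits Lepr and Socs3 most.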

Other observations

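Genes most enriched in the nuclei with a UMI of the sparse members, ranked over all genes with enough counts and therefore chosen after their values were seen, are given as values. In the 318 neurons with an Irs4 UMI, Lgr5, a receptor for R-spondins, stood at 45.6 CPM, against 10.5 CPM in neurons without one, a ratio of 4.33 (3.35 to 5.57). Calcrl, the receptor component for calcitonin gene-related peptide, stood at 42.6 against 17.5 CPM, Qrfpr, the receptor of the feeding peptide QRFP, at 39.6 against 15.9 CPM, and Rxrg, a retinoid receptor, at 44.1 against 16.7 CPM. In the 111 neurons with a Lepr UMI, Lypd6b stood at 34.2 against 10.2 CPM and Trpc6, a cation channel, at a ratio of 2.41 (1.59 to 3.51).

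In the 21 neurons with a Socs3 UMI, Ptpn1 stood at 184 CPM from 20 UMIs, against 79.3 CPM in the others, a ratio of 2.32 (1.42 to 3.60), and 2.17 within classes. Ghr stood at 1382 against 386 CPM and the transcription factor Zeb2 at 498 against 66.4 CPM in the same nuclei. Of these 21 nuclei, 38.1% were in the Sst class, which holds 5.82% of all neurons. In the other direction, Socs3 in neurons with a Ptpn1 UMI was at a ratio of 1.64 with an interval across 1 (0.634 to 4.14).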
